A study of Mus musculus with 66 samples.

Results

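Krt7, Krt8, Krt18, Krt19 and Krt20 are the keratins of single-layered epithelia and of the zone where such an epithelium meets a stratified one. They were taken by symbol from the deposited table as 5 of 30452 genes, with the values of each gene's transcripts summed, and all 5 were found. Levels are given as TPM, a length-adjusted share of each library's transcripts. The tissue came from 19 wildtype C57Bl/6 mice, bought at 6 weeks of age, whose mid-colon, rectum and anus were sampled. All groups share this genotype and differ in section, in day and, with the day, in the treatment described next. The 4 mice of day 0 were uninjured, and 3 mice each were taken at day 3, 6, 9, 14 and 20 of a protocol with 3% DSS (dextran sulfate sodium), which damages the lining of the colon, for 6 days from day 0. The day 3 mice were therefore taken before the DSS ended. The 9 mice of days 9, 14 and 20 also gave a section of squamous neo-epithelium, which makes 66 samples in 21 groups. Replicates are separate mice, and every later day was compared with the same 4 mice of day 0.

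Keratins are the intermediate filament proteins of epithelial cells, and each filament is built from pairs of a type I and a type II keratin. Krt7 and Krt8 are type II, and Krt18, Krt19 and Krt20 are type I. Krt8 and Krt18 are the usual pair of simple epithelia, Krt19 is found in simple epithelia and in some cells of stratified ones, Krt20 is best known from the differentiated cells of the upper crypt and surface of the gut, and Krt7 from ducts, glands and epithelial transition zones.

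In GENCODE M21 (GRCm38), Krt7, Krt8 and Krt18 lie in the type II cluster on chromosome 15 and Krt19 and Krt20 in the type I cluster on chromosome 11. Krt7 spans chr15:101411043-101430313 on the plus strand, Krt8 chr15:101996698-102004482 on the minus strand and Krt18 chr15:102028180-102032027 on the plus strand, so that Krt18, a type I gene, stands beside Krt8 with 23697 bases between their starts. Krt19 spans chr11:100140810-100148665 and Krt20 chr11:99428403-99438150, both on the minus strand. The RefSeq promoters of Krt8 and Krt18 are shown because these divergent neighbours both fell in the anus but differed in the rectum at day 9. There Krt8 fell, while Krt18 rose by a log2 change of 0.32 that did not hold in every fit given below. The promoter of Krt7 is shown because it was the keratin that ended higher in the anus. These RefSeq starts differ from the starts of the GENCODE spans above, and the whole Krt7 window lies inside the Krt7 span. Motif distances are counted from the RefSeq starts. Each window runs from 250 bases before the annotated RefSeq start to 50 bases after it (GRCm38.p6, 5′ to 3′ on the gene's strand). Capitals mark matches on either strand to TATAAA or GGGCGG.
Krt8 (chr15:102004293-102004592, minus strand): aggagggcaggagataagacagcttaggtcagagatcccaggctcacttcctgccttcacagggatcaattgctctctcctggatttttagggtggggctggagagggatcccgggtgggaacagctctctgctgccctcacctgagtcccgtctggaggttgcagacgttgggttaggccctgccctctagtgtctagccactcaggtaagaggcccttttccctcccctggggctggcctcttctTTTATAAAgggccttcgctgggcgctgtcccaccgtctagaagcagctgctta
Krt18 (chr15:102027966-102028265, plus strand): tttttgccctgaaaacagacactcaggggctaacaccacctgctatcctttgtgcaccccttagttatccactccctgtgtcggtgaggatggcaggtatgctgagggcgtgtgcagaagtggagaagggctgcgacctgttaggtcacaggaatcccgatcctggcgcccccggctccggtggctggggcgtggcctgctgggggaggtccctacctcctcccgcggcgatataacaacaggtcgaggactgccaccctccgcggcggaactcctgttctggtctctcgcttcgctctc
Krt7 (chr15:101412153-101412452, plus strand): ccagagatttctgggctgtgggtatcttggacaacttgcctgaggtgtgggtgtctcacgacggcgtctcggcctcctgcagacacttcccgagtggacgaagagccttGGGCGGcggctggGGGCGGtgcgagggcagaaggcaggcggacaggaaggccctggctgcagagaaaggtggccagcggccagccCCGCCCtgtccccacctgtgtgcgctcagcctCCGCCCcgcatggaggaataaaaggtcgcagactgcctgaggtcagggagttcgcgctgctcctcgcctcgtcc
The Krt7 window held 4 matches to GGGCGG, a sequence found in 35.7% of all 32851 promoters of that table, and no match to TATAAA, which 13.6% of them hold. The Krt8 window held 2 overlapping matches to TATAAA, 1 on each strand, that begin 3 bases and 1 base before the annotated start. No match to either was found in the Krt18 window. The Krt20 window, at chr11:99438104-99438403, held 1 match to TATAAA beginning 29 bases before the start. Neither TGANTCA, present in 7.81% of all promoters, nor CATAAA, present in 11.9%, was found in these 4 windows on either strand. The GC content was 66.3% for Krt7, 61.3% for Krt18 and 58.0% for Krt8, beside a median of 52.7% over all promoters, and that of Krt20 lay below this median.

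How each TPM value was assembled differed between the genes. Krt8, Krt18 and Krt20 had 1 transcript each. For Krt7, 62.2% of the TPM lay on Krt7-204, a model of 642 bases whose end is not annotated, 24.4% on Krt7-202, a retained-intron model, and 12.1% on the principal transcript Krt7-201 of 4094 bases, so the summed Krt7 level is set largely by a short fragment and is not used to rank Krt7 against the other genes. Pooled over days, the share of Krt7-201 ran from 11.3% in the anus to 13.2% in the mid-colon, but single groups differed more. At day 0 its mean was 24.4 of 237.1 TPM in the anus and 11.1 of 78.22 TPM in the rectum. Krt19 was divided among Krt19-201 (59.3%), Krt19-203 (23.9%) and Krt19-202 (16.8%). Of the stretches of 31 bases in the Krt8 transcript, 36.05% also occur in other genes, 621 of those 695 in the pseudogene Krt8-ps, and 11.37% of those of Krt18 are shared, mostly with the pseudogene Gm5200. Neither of these pseudogenes had a summed TPM value among the genes used here. Whether reads from them were counted for Krt8 or Krt18 was not tested.

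The sections were checked against markers, with the values in the same TPM unit. The summed level of 10 squamous keratins was 8.45 to 1040 TPM in the rectum, 13000 to 29600 in the anus and 15500 to 34700 in the neo-epithelium. The columnar epithelium list, which holds Epcam and Cdh1, summed to between 5350 and 12000 TPM in the rectum and to between 577 and 5730 in the neo-epithelium, with the lowest sum in mouse 12, whose surface colonocyte sum was 8.51 TPM. Some genes of the columnar list, such as Cdh1, are also expressed by stratified epithelia. Skeletal muscle genes summed to between 1120 and 12300 TPM in the anus, although the muscle layer was removed before RNA isolation per the study's description, and to at most 9.15 TPM in the neo-epithelium. From 11268 to 13789 genes per sample reached 1 TPM. The table gives no counts, so depth is unknown.

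In uninjured mice, the mid-colon and the rectum carried all 5 keratins at similar levels, while the anus held less of 4 of them and more Krt7. Krt7 aside, Krt8 and Krt19 were the most abundant in both colonic sections, at 4632 ± 374 and 4381 ± 481 summed TPM in the rectum (SD, n = 4). This difference was smaller than the spread between mice, but only with the shorter Krt19 models included. By principal transcript alone, Krt19 stood at 2650 ± 288 TPM in the rectum beside 4630 ± 374 TPM for Krt8. Krt20 (666 ± 62.9 TPM) and Krt18 (440 ± 44.3 TPM) followed. These 5 genes made up 99.02% ± 0.608 of the summed TPM of all keratin genes in the rectum and 99.83% ± 0.05 in the mid-colon at day 0, but 12.32% ± 6.18 in the anus, where squamous keratins take up most of the rest.

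**Figure D1:**
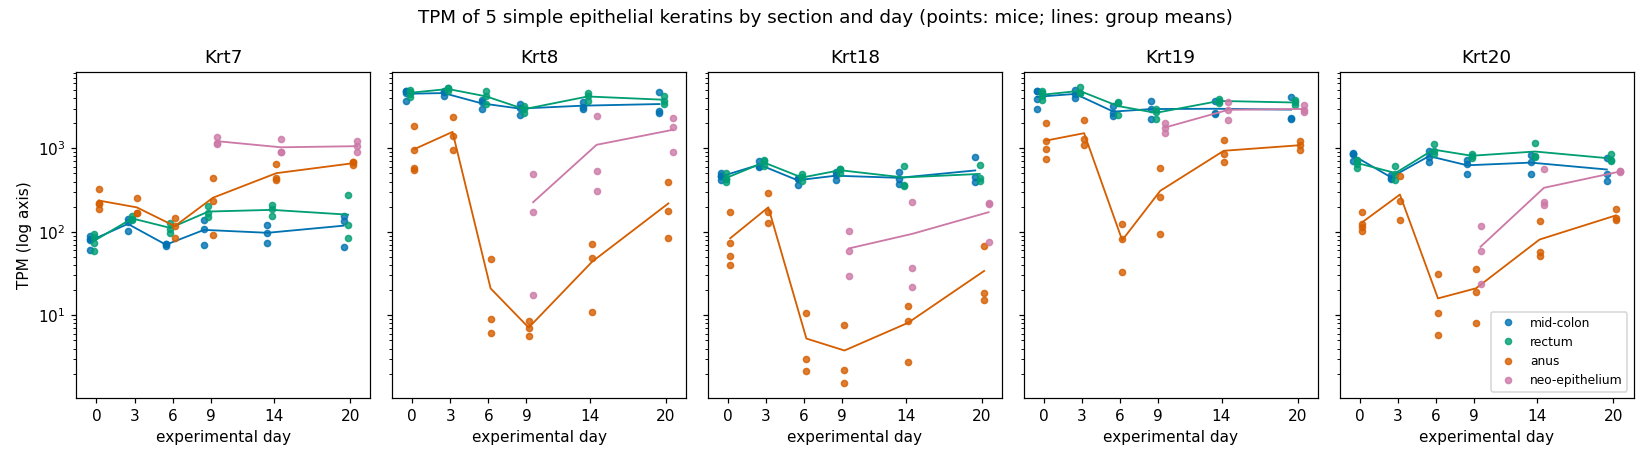
TPM of each keratin (log axis) against experimental day, 1 point per mouse and section, with lines through the group means. In the anus, Krt8 lay between 548.6 and 1833.0 TPM at day 0 and between 5.678 and 8.563 TPM at day 9, while Krt7 ended at 626.7 to 682.7 TPM, above its day 0 values.

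Between rectum and mid-colon at day 0, no keratin passed the test (limma on log2(TPM + 1), Benjamini-Hochberg adjusted p under 0.05), beside 1.79% of the 12037 genes tested. An unadjusted p under 0.05 was held by 2805 of these genes and by 1 of 5 keratins. The 95% interval of the difference was -0.19 to 0.28 on the log2 scale for Krt8 and -0.25 to 0.45 for Krt19. Krt20, a differentiation marker, was nearest, at 710.0 to 879.2 TPM in the mid-colon and 585.4 to 721.4 TPM in the rectum, with a log2 difference of -0.31 ± 0.10 (SE, adjusted p = 0.123 by limma). With TMM scaling, which lowered the median difference of all genes from 0.21 to -0.01, Krt20 was called lower in the rectum (log2 difference -0.57, adjusted p = 0.0291 by limma).

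Between anus and rectum at day 0, all 5 keratins passed the test, beside 60.3% of the 13158 genes tested. Of the 5, 4 were lower in the anus, beside 34.4% of genes called lower. Krt8 stood at 580.2, 957.1, 548.6 and 1833.0 TPM in the 4 anal samples and at 4166.0 to 5044.0 TPM in the rectal ones, a log2 difference of -2.42 ± 0.33 (adjusted p = 0.000181 by limma). The groups did not overlap, and the anal sample of mouse 4 was highest for Krt8, Krt18, Krt19 and Krt20 alike. That sample also had the highest sum of the columnar list, 3970 TPM against 1340 to 2200 in the other anal samples of day 0. Krt18 (-2.61 ± 0.37), Krt20 (-2.38 ± 0.17) and Krt19 (-1.91 ± 0.26) were lower in the anus by similar log2 differences. Krt7, the transition zone keratin, went the other way. It measured 325.5, 185.8, 213.3 and 223.9 TPM in the anus and 72.73, 86.16, 94.46 and 59.51 TPM in the rectum, a log2 difference of 1.58 ± 0.20 (adjusted p = 0.000114 by limma). From the principal Krt7 transcript alone the difference was 1.08 (adjusted p = 0.00112 by limma). Of the lists, 10 of 10 columnar genes and 7 of 7 surface colonocyte genes were also lower in the anus, and 10 of 10 squamous keratins and 4 of 4 skeletal muscle genes higher, with medians of -2.2, -3.34, 7.62 and 8.29 on the log2 scale beside -0.15 over all genes. In such bulk tissue, fewer cells of a type and less RNA per cell cannot be told apart.

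The largest log2 changes after DSS were in the anus. At day 3, while DSS was still given, no keratin passed the test in limma, beside 0.0440% of 13639 genes. An unadjusted p under 0.05 was held by 615 of these genes and by 2 keratins. These were Krt18, at 289.6, 126.0 and 174.3 TPM (log2 difference 1.37 ± 0.48), and Krt20, at 466.1, 139.3 and 233.2 TPM, and both overlapped day 0. All 5 were lower at day 6 than at day 0, beside 15.0% of 13730 genes called in either direction and 6.37% called lower. Krt8 measured 47.63, 6.19 and 9.133 TPM in the 3 mice of day 6, against at least 548.6 TPM in each mouse of day 0, a log2 change of -5.83 ± 0.66 (adjusted p = 0.00105 by limma). Its partner Krt18 measured 10.63, 3.003 and 2.158 TPM against 39.62 to 171.3 TPM (log2 change -3.77 ± 0.56, adjusted p = 0.00349 by limma). Mouse 8 was the highest of the 3 for both genes, and neither gene's groups overlapped. Without mouse 8 the log2 change of Krt8 was -6.66 and that of Krt20 was -3.84. Krt19 fell from 751.3 to 1998.0 TPM at day 0 to 124.0, 33.15 and 81.07 TPM (log2 change -4.04 ± 0.45, adjusted p = 0.00103 by limma). Krt20, the marker of mature surface cells, fell from 103.4 to 174.2 TPM to 31.31, 5.849 and 10.67 TPM (log2 change -3.22 ± 0.46, adjusted p = 0.00281 by limma). Krt7 had the smallest log2 change of the 5. Its values of 147.8, 85.34 and 117.9 TPM gave a log2 change of -1.02 ± 0.24 (adjusted p = 0.0247 by limma), and this call was lost without mouse 9 (adjusted p = 0.1), without mouse 10 (0.0754), without a filter on low values (0.0543) and with the principal Krt7 transcript alone (0.0769).

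The other columnar genes of the anus were low at the same time. Of 9 columnar genes tested at day 6, 8 were lower, with a median log2 change of -4.05, and 6 of 6 surface colonocyte genes were lower, with a median of -5.03, beside 0.07 over all genes. Epcam, an adhesion protein of columnar epithelia, fell from 285 ± 141 to 63.3 ± 10.2 TPM (log2 change -2.06 ± 0.31, adjusted p = 0.00363 by limma). The sum of the columnar list was 241 to 266 TPM at day 6 against 1340 to 3970 TPM at day 0. Genes of the leukocyte list rose in 3 of 4 tested. In the uninjured anus this list summed to 348 to 1370 TPM with Ptprc at only 0.438 to 1.71 TPM. Its sum there thus lay mostly on other genes of the list. Squamous keratins rose in 4 of 10 (3 of 10 with TMM scaling), with 1 lower. The part of these shifts in tissue makeup in the keratin values was not tested.

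At day 9, Krt8 had its lowest mean in the anus, with 5.678, 8.563 and 7.127 TPM (log2 change from day 0 -6.75 ± 0.39, adjusted p = 0.000112 by limma). These values overlapped those of day 6, 47.63, 6.19 and 9.133 TPM, and day 9 was not tested against day 6. Krt18, at 2.187, 1.542 and 7.631 TPM, and Krt20, at 35.8, 8.187 and 19.24 TPM, were also called lower, with log2 changes of -4.13 ± 0.55 and -2.75 ± 0.41. These 3 calls stand beside 5.09% of 13591 genes called in either direction and 3.63% called lower. Krt19, at 258.1, 94.21 and 578.1 TPM, lay below every day 0 sample but did not pass (log2 change -2.26 ± 0.56, adjusted p = 0.0551 by limma). It was called without mouse 3 of day 0 (adjusted p = 0.0479), without mouse 13 (0.0228) and with TMM scaling (0.0379). Krt7 ranged from 90.38 to 445.2 TPM and overlapped the day 0 range, with an interval of -1.18 to 0.91 on the log2 scale. The 3 mice kept the same order for Krt7 and Krt19, with mouse 12 lowest and mouse 13 highest.

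**Figure D2:**
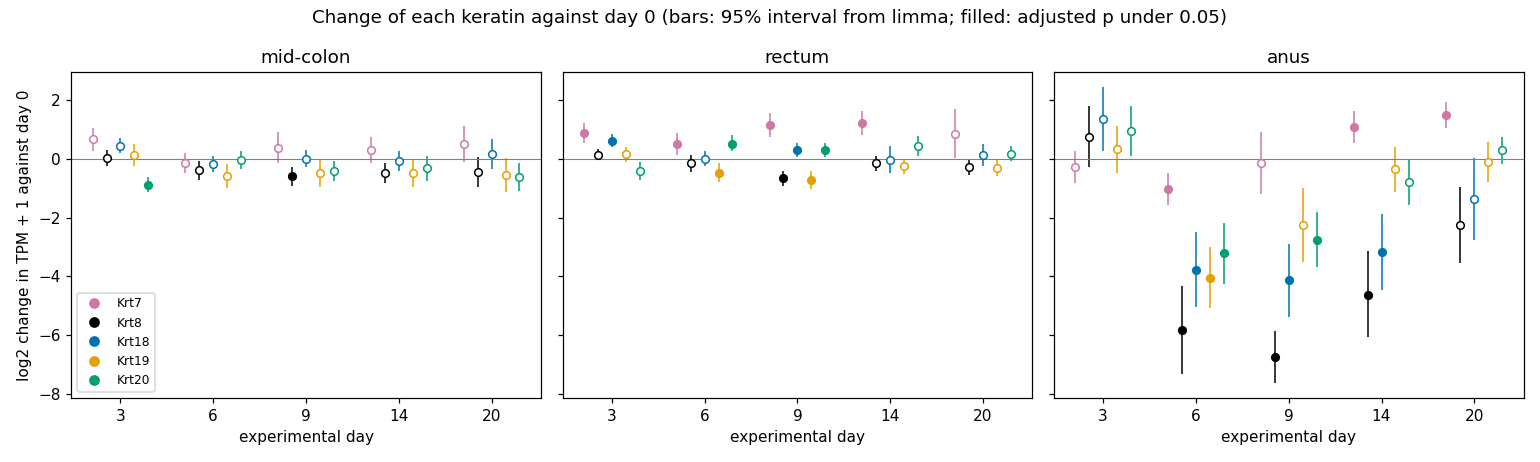
Log2 change in TPM + 1 of each keratin against day 0 of the same section, by day, with the 95% interval from limma. Filled symbols have an adjusted p under 0.05. In the anus Krt8 and Krt18 lay below -3 from day 6 to day 14, while Krt7 was above 0 at days 14 and 20.

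Recovery in the anus was uneven among the 5 keratins. At day 14, beside 4.27% of 13763 genes called, 3 keratins passed the test. Krt8 (71.53, 49.19 and 11.09 TPM) and Krt18 (13.07, 8.523 and 2.766 TPM) were still lower than at day 0, beside 2.01% of genes called lower, with log2 changes of -4.62 ± 0.64 and -3.18 ± 0.57 (adjusted p = 0.0101 and 0.0215 by limma). Krt7 was higher, at 655.7, 442.3 and 415.6 TPM (log2 change 1.09 ± 0.23, adjusted p = 0.0409 by limma). Krt19, at 1258.0, 694.9 and 853.3 TPM, and Krt20, at 134.1, 57.83 and 50.66 TPM, overlapped their day 0 ranges, and mouse 14 was the highest of the 3 for all 5 genes. The Krt7 call at day 14 was lost with TMM scaling (adjusted p = 0.109), without a filter (0.0926) and without mouse 2, 3, 4, 14, 15 or 16 (0.0805 to 0.117). Without mouse 16 the log2 change of Krt8 was -3.84. The Krt18 call was lost without a filter (0.0656) and without mouse 2, 15 or 16 (0.0598 to 0.0743).

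At day 20, Krt7 was the only keratin called in the anus, beside 1.46% of 13747 genes. It measured 626.7, 682.7 and 678.0 TPM, each above the highest day 0 sample of 325.5 TPM (log2 change 1.51 ± 0.19, adjusted p = 0.0189 by limma). The call was lost with TMM scaling (adjusted p = 0.0519) and without mouse 2, 3, 18 or 19 (0.0561 to 0.0905), while the log2 change stayed between 1.40 and 1.67. Krt8, at 394.3, 83.75 and 178.5 TPM, remained below every day 0 sample without passing the test (log2 change -2.25 ± 0.57, adjusted p = 0.0931 by limma). Krt18, at 68.23, 15.4 and 18.37 TPM, overlapped its day 0 range of 39.62 to 171.3 TPM (log2 change -1.36 ± 0.61, adjusted p = 0.271 by limma). Its values in mice 18 and 19 lay below every day 0 sample. Krt19 (951.1 to 1212.0 TPM) and Krt20 (137.8 to 187.9 TPM) lay within or near their day 0 ranges, with intervals of -0.79 to 0.60 and -0.18 to 0.77. Set directly against day 9, a comparison added after the data were seen, Krt8 (log2 change 4.50, adjusted p = 0.0165 by limma) and Krt20 (3.04, adjusted p = 0.0328 by limma) were higher at day 20, beside 2.15% of 13376 genes called and 1.21% called higher. Both calls were lost without a filter on low values and without any of the 3 mice of day 9, with adjusted p between 0.0547 and 0.0964, and that of Krt20 also without mouse 17 or 19.

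The changing balance of the 5 keratins in the anus is seen in their ratios. The ratio of Krt7 to Krt8 TPM was 0.122 to 0.561 at day 0, 3.10 to 13.8 at day 6, 10.6 to 62.5 at day 9 and 1.59 to 8.15 at day 20. Krt19 to Krt8 went from 1.09 to 1.72 at day 0 to 11.0 to 81.1 at day 9. Both ratios were higher in each mouse of days 6 to 20 than in any mouse of day 0. Both use summed TPM, so they do not rank Krt7 or Krt19 against Krt8. By principal transcript alone, mean Krt7 in the anus was below mean Krt8 at days 0, 3, 6 and 20. At day 20 these means were 80.6 and 219 TPM. Mean Krt7 was above mean Krt8 at days 9 (27.4 against 7.12 TPM) and 14. Mean Krt19 by principal transcript was 703 TPM at day 0, beside 980 TPM for Krt8. Krt8 to Krt18 was 10.65 to 14.65 at day 0 and 0.93 to 5.55 at day 9, with no overlap between the days. The 5 genes together held 1668 to 4400 TPM at day 0, 133.5 to 361.3 TPM at day 6 and 1879 to 2337 TPM at day 20.

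**Figure D3:**
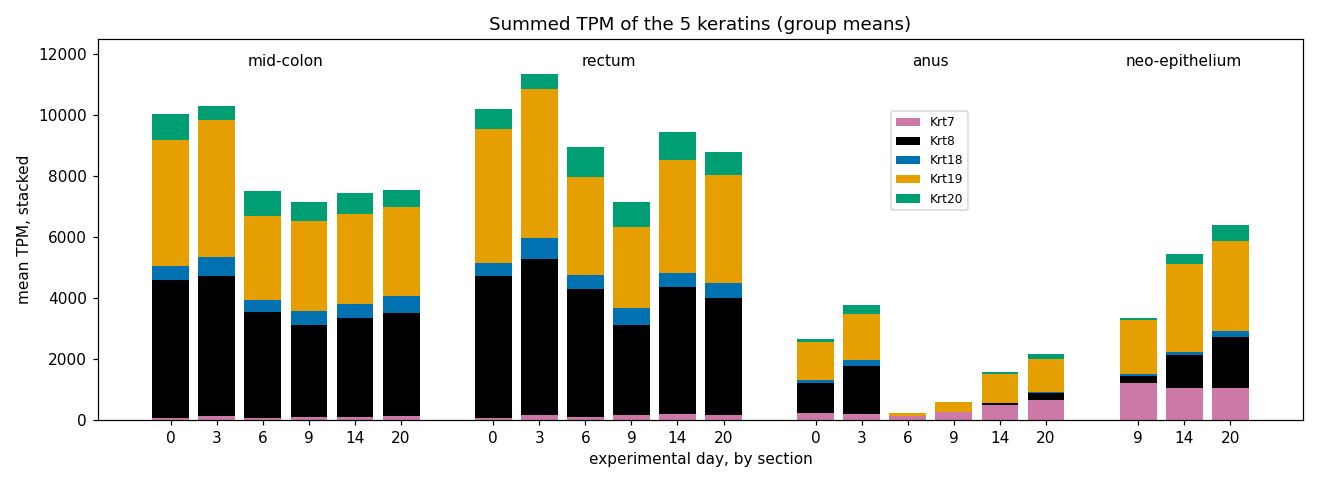
Mean TPM of the 5 keratins, stacked, by section and day, with no error shown. The sum fell to 238.6 TPM in the anus at day 6 and was 6397 TPM in the neo-epithelium at day 20, where Krt7 (shown with its short transcript models included) took a larger part than in the rectum.

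In the rectum, keratins moved in both directions and no log2 change exceeded 1.23 in size. At day 3, 2 of 5 passed, both higher, beside 6.62% of 12348 genes called and 1.50% called higher. Krt7 rose from 59.51 to 94.46 TPM at day 0 to 137.5, 143.1 and 153.4 TPM (log2 change 0.90 ± 0.15, adjusted p = 0.00762 by limma). Krt18 rose from 399.6 to 503.1 TPM to 609.0, 724.1 and 700.7 TPM (log2 change 0.62 ± 0.10, adjusted p = 0.00691 by limma). Krt8 did not pass, with an interval of -0.04 to 0.35, and the Krt8 to Krt18 ratio was 7.34 to 8.03 at day 3 against 9.51 to 11.88 at day 0. The squamous keratin sum at day 3 was 8.45 to 29.9 TPM against 16.3 to 164 TPM at day 0, and its part in the Krt7 values was not tested. Of 4 crypt base and proliferation genes tested, 4 were lower, and of 7 surface colonocyte genes 1 was higher and 3 lower.

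At day 6, 3 keratins passed in the rectum, beside 48.7% of 12615 genes called and 11.5% called higher. Krt20 was higher, at 848.9, 923.3 and 1126.0 TPM against 585.4 to 721.4 TPM (log2 change 0.53 ± 0.12, adjusted p = 0.0082 by limma). Krt7 was higher at 107.9, 97.44 and 128.7 TPM (0.52 ± 0.17, adjusted p = 0.0322 by limma), and Krt19 lower at 3497.0, 3640.0 and 2521.0 TPM (-0.46 ± 0.15, adjusted p = 0.0313 by limma). The median of all genes stood at -0.27 here. With TMM scaling, which brought it to -0.04, Krt19 was no longer called (-0.18, adjusted p = 0.284) and Krt18 was called higher (0.30, adjusted p = 0.0386). Krt7 was not called from its principal transcript alone (log2 change 0.19, adjusted p = 0.439), and both Krt7 and Krt19 lost their calls without a filter (0.066 and 0.0851). Krt7 also lost it without mouse 1, 4, 8 or 10 (0.0568 to 0.109) and Krt19 without mouse 1, 2, 3 or 10 (0.0579 to 0.0777).

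At day 9, all 5 keratins passed in the rectum, beside 53.5% of 13140 genes called. Of the 5, 3 were higher, beside 33.5% of genes called higher, and 2 lower, beside 20.0% called lower. Krt8 fell from 4166.0 to 5044.0 TPM to 3261.0, 2616.0 and 2977.0 TPM (log2 change -0.65 ± 0.11, adjusted p = 0.0014 by limma). Krt19 fell from 3792.0 to 4916.0 TPM to 2731.0, 2255.0 and 3002.0 TPM (-0.72 ± 0.13, adjusted p = 0.00196 by limma). Krt7 rose to 203.6, 152.2 and 169.3 TPM (1.16 ± 0.17, adjusted p = 0.000587 by limma). These 3 changes kept their calls under TMM scaling. Those of Krt18 (0.32 ± 0.11, adjusted p = 0.0355 by limma) and Krt20 (0.30 ± 0.11, adjusted p = 0.0416 by limma) did not, with TMM values of 0.11 and 0.09 and adjusted p = 0.434 and 0.635. The Krt18 call ended without mouse 1, 2, 4, 11 or 13 (0.0815 to 0.0941), and the Krt20 call without a filter (0.0614) or without mouse 2, 3, 4, 11, 12 or 13 (0.053 to 0.106). In the same libraries the leukocyte list summed to between 10400 and 12300 TPM against 4.86 to 14.5 TPM at day 0, and 6 of 7 surface colonocyte genes were lower. Squamous keratins were higher in 5 of 9 tested (4 higher and 1 lower with TMM scaling), with Krt5, a basal cell keratin, at 131, 15.3 and 17.4 TPM against at most 9.44 TPM at day 0. Their part in the keratin values was not tested.

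At day 14, Krt7 was the only keratin called in the rectum, beside 15.8% of 12749 genes, at 152.8, 186.1 and 211.0 TPM (log2 change 1.23 ± 0.18, adjusted p = 0.00993 by limma). Its principal transcript alone gave a log2 change of 0.76 (adjusted p = 0.0423 by limma). The squamous keratin sums of these 3 libraries were 26.8, 1040 and 766 TPM. Krt20 did not overlap day 0 but was not called (0.44 ± 0.15, adjusted p = 0.0795 by limma), except with TMM scaling (0.0308) or without mouse 14 (0.0252). At day 20 no keratin passed in limma, beside 7.68% of 12677 genes. An unadjusted p under 0.05 was held by 3649 of these genes and by 3 keratins. Krt7 then spread from 275.1 TPM in mouse 17 over 121.2 in mouse 18 to 85.29 TPM in mouse 19, and the squamous keratin sums of these mice, 619, 356 and 10.4 TPM, had the same order. The part of squamous RNA in the Krt7 values of days 14 and 20 was not tested. Without mouse 19, Krt7 was called (log2 change 1.23, adjusted p = 0.031 by limma).

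In the mid-colon, at most 1 keratin was called at any day. Krt20 was the only keratin called at day 3, beside 0.375% of 12008 genes, at 442.6, 484.4 and 423.9 TPM against 859.8, 879.2, 856.6 and 710.0 TPM (log2 change -0.87 ± 0.12, adjusted p = 0.0227 by limma). The groups did not overlap, but the call was lost without a filter on low values (adjusted p = 0.0922) and without any of the mice 1, 2, 3, 5, 6 and 7 (0.0584 to 0.0895). Krt7 and Krt18 were higher in every day 3 mouse than in any day 0 mouse without passing (adjusted p = 0.166 and 0.155 by limma), with log2 differences of 0.67 ± 0.17 and 0.46 ± 0.11. At day 6, no keratin passed in limma, beside 14.9% of 11967 genes. An unadjusted p under 0.05 was held by 4243 of these genes and by 2 keratins. Without mouse 4, the day 0 mouse with the lowest Krt8 and Krt19, both genes were called lower (log2 change -0.48 and -0.72, adjusted p = 0.0163 and 0.0076 by limma).

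Krt8 was the only keratin called in the mid-colon at day 9, beside 43.4% of 12323 genes, at 2534.0, 3065.0 and 3386.0 TPM against 3652.0 to 4873.0 TPM (log2 change -0.59 ± 0.15, adjusted p = 0.00852 by limma). Krt19 and Krt20 were called too under TMM scaling, at -0.61 and -0.53 (adjusted p = 0.0308 and 0.00984 by limma). None was called at day 14, beside 4.36% of 12135 genes, or at day 20, beside 1.56% of 12116 genes. On each day 1 keratin had an unadjusted p under 0.05 by limma, beside 2516 genes at day 14 and 2505 at day 20. At day 20, mouse 18 was high for all 5 genes, with Krt8 at 4681.0 TPM against 2831.0 and 2677.0 TPM in the other mice. Without mouse 18, Krt20 was called lower (log2 change -0.88, adjusted p = 0.0398 by limma), and without mouse 19, Krt7 higher (0.90, adjusted p = 0.042 by limma).

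The difference between sections in the response to DSS was tested as an interaction. Between rectum and mid-colon, none of the 5 passed at day 6, beside 0% of 12986 genes in limma. There 730 genes and 2 keratins had an unadjusted p under 0.05, and 76 genes passed with the mouse as a block. At day 9 Krt20 differed (log2 difference of the changes 0.71 ± 0.19, adjusted p = 0.0383 by limma), beside 6.55% of 13520 genes. That call ended with a pseudocount of 0.1 TPM (adjusted p = 0.0568), with TMM scaling (0.0558), without a filter (0.063) and without mouse 1, 2, 3, 11 or 13 (0.0796 to 0.142). Between anus and rectum, in comparisons added after the data were seen, the change from day 0 was lower in the anus for all 5 at day 6, beside 21.5% of 14571 genes called and 6.16% called lower, by -5.67 ± 0.75 for Krt8, -3.79 ± 0.64 for Krt18, -3.75 ± 0.52 for Krt20, -3.58 ± 0.53 for Krt19 and -1.53 ± 0.31 for Krt7. The adjusted p by limma lay between 0.000228 (Krt8) and 0.00391 (Krt7), and from its principal transcript alone Krt7 did not pass (-1.15, adjusted p = 0.053). Leaving out mouse 8 moved Krt8 to -6.49 and Krt20 to -4.45, and leaving out mouse 9 moved Krt8 to -5.01 and Krt19 to -2.96. In the rectum at day 6, Krt7 and Krt20 had been higher than at day 0. At day 9 the difference held for Krt8 (-6.10 ± 0.44), Krt18 (-4.45 ± 0.62) and Krt20 (-3.05 ± 0.47), beside 19.9% of 14733 genes called and 15.6% called lower. Krt7 and Krt19 passed then only without mouse 13 (-1.85 and -2.07, adjusted p = 0.0239 and 0.0275).

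The squamous neo-epithelium held Krt7 at a higher level than any other section. Over the 9 mice, Krt7 ranged from 899.7 to 1360.0 TPM with a median of 1137.0 TPM, while the highest rectal sample of any day had 275.1 TPM and the highest anal one 682.7 TPM. Compared with the rectum of the same days, Krt7 was higher by a log2 difference of 2.72 ± 0.17 (adjusted p = 2.49e-09 by limma, higher in 9 of 9 mice). The other 4 were lower in 9 of 9 mice each: Krt8 by -2.81 ± 0.59, Krt18 by -2.60 ± 0.40, Krt20 by -1.98 ± 0.41 and Krt19 by -0.41 ± 0.10 on the log2 scale, with adjusted p up to 0.00302 by limma. All 5 were thus called, beside 42.9% of 13024 genes, and 22.0% of genes were called lower. Krt19 overlapped between the sections over the 9 mice, and the others did not. The share of all genes that did not overlap, or that had the same sign in 9 of 9 mice, was not counted. Neither trait is thus read as particular to the keratins. Of the lists, 9 of 9 squamous keratins were higher and 9 of 10 columnar genes lower, with medians of 6.35 and -1.96.

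**Figure D4:**
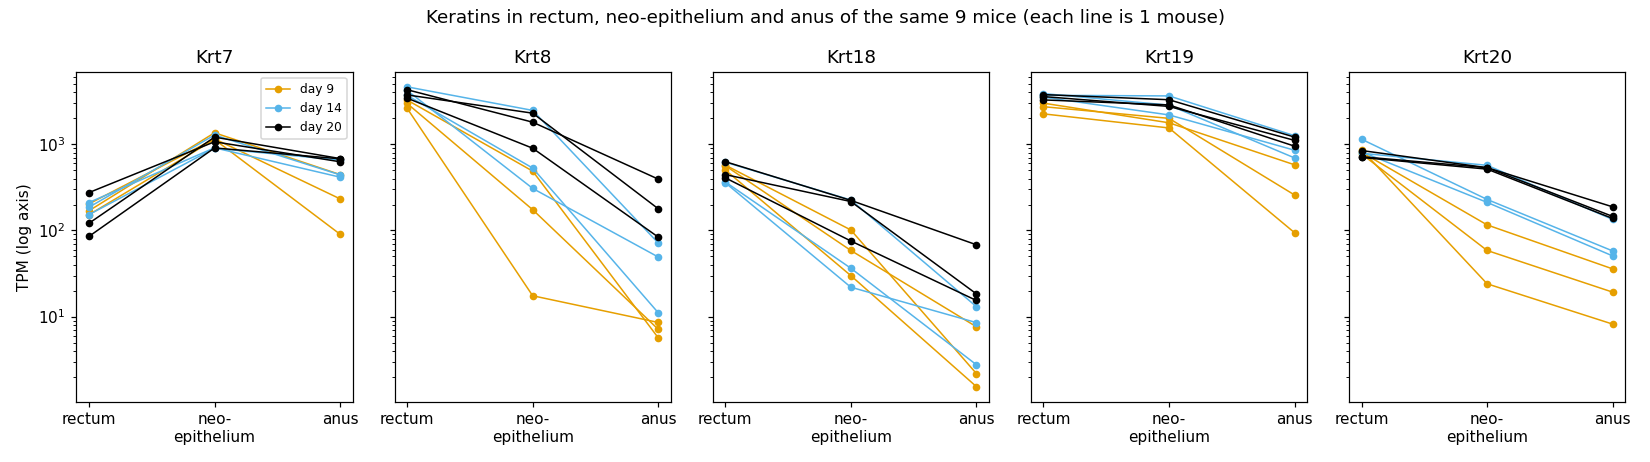
TPM of each keratin (log axis) in rectum, neo-epithelium and anus of the 9 mice of days 9, 14 and 20, 1 line per mouse. Krt7 peaked in the neo-epithelium in each mouse, while the other 4 keratins stepped down from rectum to neo-epithelium to anus in each mouse.

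Compared with the anus of the same days, all 5 keratins were higher in the neo-epithelium, in 9 of 9 mice each, beside 59.8% of 13256 genes called and 40.1% called higher. The log2 difference was 3.78 ± 0.57 for Krt8 (adjusted p = 3.47e-05 by limma), 3.04 ± 0.47 for Krt18 (4.12e-05), 1.98 ± 0.28 for Krt19 (1.82e-05), 1.78 ± 0.31 for Krt20 (0.000127) and 1.41 ± 0.28 for Krt7 (0.000488). Krt7 and Krt19 did not overlap between the sections over all 9 mice, whereas Krt8, Krt18 and Krt20 did. Krt19 in the neo-epithelium stood at 1547.0 to 3641.0 TPM with a median of 2750.0 TPM. Columnar genes were higher in 9 of 9 tested and skeletal muscle genes lower in 4 of 4, with medians of 2.03 and -9.21 beside 0.18 over all genes, so the 2 sections differed in more than their epithelium. The part of the muscle RNA of the anal sections in these differences was not tested.

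Within the neo-epithelium, Krt20 and Krt19 were higher at day 20 than at day 9, and Krt7 did not pass the test. Krt20 measured 116.0, 24.04 and 58.57 TPM at day 9, 570.1, 229.1 and 211.7 TPM at day 14 and 514.8, 534.5 and 535.4 TPM at day 20. The 3 values of day 20 lay close together, and no later value overlapped day 9. Against day 9, the log2 change was 2.44 ± 0.63 at day 14 (adjusted p = 0.0454 by limma) and 3.24 ± 0.51 at day 20 (adjusted p = 0.00743 by limma). Krt19 rose from 1999.0, 1547.0 and 1776.0 TPM at day 9 to 2750.0, 2862.0 and 3289.0 TPM at day 20 (0.75 ± 0.15, adjusted p = 0.0151 by limma). At day 14, 1 keratin was called beside 16.8% of 13129 genes, and at day 20, 2 beside 26.2% of 13186 genes called and 10.1% called higher. The day 14 call was lost without a filter (adjusted p = 0.0898) and without mouse 12, 13, 14, 15 or 16 (0.0759 to 0.133), and the Krt19 call without mouse 12 or 13 (0.0683 and 0.0716).

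Krt8 varied most between neo-epithelial samples. It measured 488.0, 17.47 and 174.2 TPM at day 9, 2473.0, 307.6 and 529.6 TPM at day 14 and 1805.0, 900.1 and 2296.0 TPM at day 20. All 3 samples of day 20 lay above day 9, with a log2 change of 3.74 ± 1.13 (adjusted p = 0.0511 by limma), which passed with TMM scaling (0.0462) and without mouse 11 (4.77, adjusted p = 0.0304). Without mouse 12, the lowest sample, the change was 2.41 and did not pass, and it did not pass in the other fits that leave out a mouse or the filter. Krt18 followed at 101.3, 29.93 and 58.61 TPM at day 9 and 223.4, 75.48 and 216.7 TPM at day 20 (1.44 ± 0.56, adjusted p = 0.103 by limma). The sample of mouse 14, highest at day 14 for Krt8, Krt18, Krt19 and Krt20, had a columnar list sum of 5380 TPM against 1520 and 2060 TPM in the other day 14 samples and the lowest squamous keratin sum of the 9, 15500 TPM. Krt7, by contrast, was 1157.0, 1137.0 and 1360.0 TPM at day 9 and 1069.0, 1211.0 and 907.2 TPM at day 20, with an interval of -0.57 to 0.17 for the log2 change. Between day 9 and day 20, columnar genes were higher in 7 of 9 tested and surface colonocyte genes in 6 of 6, with medians of 2.23 and 6.53 beside -0.14 over all genes, and 3 of 10 squamous keratins were lower. The part of these marker shifts in the keratin values was not tested.

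The genes whose levels followed each keratin most closely over the 66 samples were taken from 7364 genes with a mean of at least 8 TPM, by Pearson r of log2(TPM + 1). The samples share 19 mice and 4 sections, so these values describe mainly the differences between sections. Krt8 was followed by Gpa33 (r = 0.992), Vil1 (0.991) and Myo15b (0.987). Vil1 encodes villin, an actin-bundling protein of the brush border. Krt18 was followed by Gipc2 (0.977), its partner Krt8 (0.97) and Tspan8 (0.968), and Krt20 by Igsf5 (0.964), Misp (0.963) and Pls1 (0.963). For Krt19 these were Cldn7 (0.956), a tight junction claudin, Mboat1 (0.945) and Marveld3 (0.945). The nearest to Krt7 were less close, namely Slc23a4 (0.904), Igfbp3 (0.903) and Adam28 (0.901), and no gene was named for more than 1 of the 5.

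Proteins that link or hold keratin filaments, a list of 11 genes that includes plectin (Plec) and desmoplakin (Dsp), were set beside the keratins. In the anus at day 6, 2 of 10 tested were lower (1 with TMM scaling) and none higher, with a median log2 change of -0.04 beside 0.07 over all genes and 15.0% of all genes called (6.37% lower). Dsp was 133 ± 19.1 TPM at day 6 and 125 ± 29 TPM at day 0, a log2 difference of 0.11 ± 0.21 (adjusted p = 0.789 by limma). In the neo-epithelium, 7 of 10 were higher than in the rectum and 2 lower, beside 42.9% of all genes called, with Dsp higher (1.02 ± 0.16, adjusted p = 6.77e-05 by limma) and Plec lower (-0.71 ± 0.20, adjusted p = 0.00737 by limma).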

How the data were processed

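The libraries keep strand and were read from 1 end over 75 bp, per the labels' protocols. The authors deposited TPM values per Ensembl transcript for 66 samples. CASAVA, kallisto and mm10 are named in the submitters' processing notes; their versions and settings are not given in the sources used here. TPM is relative, so depth is unknown and no counting interval is given. Of 126860 rows, 37344 had no values and 1318 were repeats. Columns then summed to 1000000 TPM, and TPM was summed per gene, leaving out 1284 transcripts without a gene identifier. No 2 samples held identical values. Of the table's 88198 transcripts, 97.5% were found in GENCODE M21.

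The tests used limma 3.58.1 (R 4.3.3) on log2 values of TPM + 1, with a trended empirical Bayes prior and 2-sided p. A gene was tested where at least 1 TPM was reached in as many samples as the smaller side of the comparison held. For the neo-epithelium against rectum or anus this was 9 samples. For the tests of a response between sections, the smallest single group set the number. Calls have a Benjamini-Hochberg adjusted p under 0.05 over all genes tested. Overlap between groups and counts of mice were taken for the keratins only, so no share over all genes stands beside them. The fit was checked on simulated data. Each fit held only the samples of its comparison. The comparisons of neo-epithelium with rectum and anus had a term for day. Alternatives were a pseudocount of 0.1 TPM, no filter, TMM factors (an unweighted trimmed mean of log ratios), the principal transcript only, leaving out each mouse, and a mouse block. Mouse numbers pair sections of the same animal, per the labels, and the deviations of paired samples correlated at a mean r of 0.033 to 0.266. A fold change on the log2(TPM + 1) scale understates that of low genes. Named genes are the 5 keratins, the first 2 of each list, and the 3 closest genes to each keratin. Members, lists and tests were chosen with earlier results of these data known.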

Additional observations from a re-analysis of the deposited data

Results flagged for a closer look

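The lowest of the 4 mid-colon samples of day 0 stood apart for Krt20, at 710.0 TPM against 856.6 to 879.2 TPM. About 1 in 20 sets of values is expected to be picked out this way by chance, and 15 sets were checked. These were each keratin in each section at day 0, all from the same 4 mice. Groups of later days were not checked.

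The change from day 0 differed between sections for several keratins, by a test of the difference itself. For Krt20 at day 9, rectum and mid-colon differed by 0.71 on the log2 scale. Between anus and rectum at day 6, the difference was -1.53 for Krt7, -5.67 for Krt8, -3.79 for Krt18, -3.58 for Krt19 and -3.75 for Krt20. At day 9, it was -6.1 for Krt8, -4.45 for Krt18 and -3.05 for Krt20.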

How the results depend on the processing

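No keratin called in the reported fit or under an alternative had the opposite sign in the other. The number of keratins called changed as follows. With TMM factors it was 3 in place of 1 in the mid-colon at day 9, 3 in place of 5 in the rectum at day 9, 2 in place of 1 in the rectum at day 14, 4 in place of 3 in the anus at day 9, 2 in place of 3 in the anus at day 14, 0 in place of 1 in the anus at day 20, 1 in place of 0 for rectum against mid-colon at day 0, 3 in place of 2 in the neo-epithelium at day 20 against day 9, and 0 in place of 1 for the day 9 response of rectum against mid-colon. Without a filter it was 0 in place of 1 in the mid-colon at day 3, 1 in place of 3 in the rectum at day 6 and in the anus at day 14, 4 in place of 5 in the rectum at day 9 and the anus at day 6, 0 in place of 1 in the neo-epithelium at day 14 and for the day 9 response, and 0 in place of 2 in the anus at day 20 against day 9. A pseudocount of 0.1 TPM gave 0 for the day 9 response. The principal transcript gave 2 in place of 1 in the mid-colon at day 9, 2 in place of 3 in the rectum at day 6, and 4 in place of 5 in the anus at day 6 and for its response against the rectum. The principal transcript, and the 3 comparisons added, were chosen after seeing the data.

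Leaving out each mouse in turn, the number called ranged from 0 to 1 in the mid-colon at day 3, 0 to 2 at day 6, 1 to 3 at day 9, 0 to 1 at day 14 and 0 to 1 at day 20, from 2 to 3 in the rectum at day 3, 1 to 3 at day 6, 3 to 4 at day 9, 1 to 2 at day 14 and 0 to 1 at day 20, from 4 to 5 in the anus at day 6, 3 to 4 at day 9, 1 to 3 at day 14 and 0 to 1 at day 20, from 0 to 1 in the neo-epithelium at day 14 and 1 to 3 at day 20, from 0 to 1 for the day 9 response of rectum against mid-colon, 0 to 2 for anus day 20 against day 9, and 3 to 5 for the day 9 response of anus against rectum. In the mid-colon at day 9, Krt7 (adjusted p = 0.0249) was called without mouse 11, Krt19 without mouse 4 or 13 (0.0234 and 0.0434) and Krt20 without mouse 4 or 12 (0.0324 and 0.0312). At day 14, Krt8 was called there without mouse 4 (0.041). In the rectum at day 3, Krt20 was called without mouse 6 (0.0428), in the anus at day 14 Krt20 without mouse 14 (0.0413), and in the neo-epithelium at day 20 Krt18 without mouse 18 (0.0321).

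A replicate block for the mouse changed none of 40 keratin calls in the 8 comparisons it applies to; with it, 5 keratins were called for neo-epithelium against rectum and 5 against anus. The number of all genes called moved by more than 1.5 times for rectum against mid-colon, from 216 to 349, and for the day 6 response of these sections, from 0 to 76, with the block. TMM factors moved it from 45 to 134, 529 to 1259 and 189 to 661 in the mid-colon at days 3, 14 and 20, from 973 to 1677 in the rectum at day 20, from 6 to 3 and 692 to 1210 in the anus at days 3 and 9, and from 216 to 109 for rectum against mid-colon. Without a filter it fell from 45 to 4, 1785 to 1022, 529 to 239 and 189 to 22 in the mid-colon at days 3, 6, 14 and 20, from 2017 to 1189 and 973 to 202 in the rectum at days 14 and 20, from 6 to 0, 692 to 373, 588 to 246 and 201 to 59 in the anus at days 3, 9, 14 and 20, from 216 to 34 for rectum against mid-colon, from 2207 to 1379 in the neo-epithelium at day 14 and from 288 to 12 in the anus at day 20 against day 9, and was 2 in place of 0 for the day 6 response. The pseudocount moved it from 885 to 444 for the day 9 response and from 6 to 4 in the anus at day 3. Leaving out each mouse moved it by more than 1.5 times too: from 7 to 71, 596 to 5248, 62 to 1365 and 31 to 1200 in the mid-colon at days 3, 6, 14 and 20 (5248 without mouse 4), 417 to 1282, 386 to 5165 and 52 to 2873 in the rectum at days 3, 14 and 20 (5165 without mouse 14), 0 to 12, 876 to 2130, 315 to 827, 162 to 557 and 25 to 237 in the anus at days 3, 6, 9, 14 and 20, 1 to 166 for rectum against mid-colon, 0 to 2984 and 1021 to 4122 in the neo-epithelium at days 14 and 20 (0 without mouse 13), 2 to 406 in the anus at day 20 against day 9, 0 to 13 and 340 to 1187 for the responses of rectum against mid-colon, and 1898 to 3849 for the day 6 response of anus against rectum. The shares of all genes printed beside the keratin calls vary with it. The cause was not tested. Depth is unknown, so its limit on low Krt18 values is too.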
